A study of Rattus norvegicus with 22 samples.

Results

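The genes described here were 9 that encode hair-type keratins and keratin-associated proteins, of 19204 gene names on the array. They were the type I hair keratins Krt31, Krt34 and Krt36, the type II hair keratins Krt83 and Krt85, and the keratin-associated proteins Krtap1-1, Krtap1-3, Krtap3-1 and Krtap13-2. They were selected on their measured signal in these samples, which the study lists as lower in oral squamous cell carcinoma (OSCC) than in adjacent phenotypically normal tissue. Their mean difference between the tissues is therefore given as a description, with no p-value. Each was looked up by its symbol on the array or, failing that, by its published accession. All 9 were found, Krtap13-2 with 2 probes and the others with 1. Where a gene had more than 1 probe, the brightest was used.

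Hair-type keratins are the hard keratins of the hair shaft, nail and filiform papillae, the horny projections that cover the upper surface of the rodent tongue. A type I and a type II keratin pair to form each intermediate filament. Keratin-associated proteins, many of them rich in cysteine, form the matrix that is crosslinked to these filaments through disulfide bonds. The regulators LEF1, MSX2, DLX3, FOXN1 and HOXC13 are transcription factors known for their part in the differentiation of the hair shaft.

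Tissue came from 11 male F344 rats, an inbred strain, that drank water with 4-nitroquinoline-1-oxide (4-NQO), a carcinogen, at 20 ppm for 10 weeks and were necropsied 23 to 26 weeks after the first exposure, at an age of about 33 weeks. Each rat gave a piece of OSCC of the tongue and a piece of adjacent phenotypically normal tongue, so that both groups shared the exposure, although the labels put the word untreated in the title of every sample and give the normal pieces no treatment. RNA of each piece was hybridized to its own 1-color array. Levels are given as log2 of the processed signal over the 75th percentile of the array, so that a level of 0 is the signal of the 75th percentile, and a difference is always OSCC minus normal within a rat. Levels of different probes were not compared with each other.

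The 75th percentile lay between 236.8 and 654.9 signal units on the normal arrays and between 338.7 and 1414.0 on the OSCC arrays. Normal arrays were on 3 slides and OSCC arrays on 4 others, and all 11 normal arrays but only 2 OSCC arrays, those of animals 4 and 9, were scanned on the first day. In the whole array, limma called 13.8% of 30367 probes, by an adjusted p under 0.05 together with a 2-fold difference, and 50.4% of those calls were lower in OSCC (67.2% when arrays were scaled to their median). No slide held both tissues.

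The probes of the 3 keratin-associated proteins of the Krtap1 and Krtap3 families end at a stop codon, and their letters show the sulfur-rich end of each protein. They are printed 5′ to 3′, with in-frame codons for cysteine in capitals. The probes lie on the minus strand of the rn4 assembly at chr10:88538870-88538929, chr10:88545976-88546035 and chr10:88514006-88514065.
Krtap1-1: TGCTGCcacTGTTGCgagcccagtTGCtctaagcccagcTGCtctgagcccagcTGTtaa
Krtap1-3: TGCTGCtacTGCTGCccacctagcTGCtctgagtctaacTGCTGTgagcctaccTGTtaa
Krtap3-1: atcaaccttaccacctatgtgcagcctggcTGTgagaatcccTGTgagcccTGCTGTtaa
Cysteine took 7 of the 19 codons before the stop in the Krtap1-1 probe, 8 of 19 in the Krtap1-3 probe and 4 of 19 in the Krtap3-1 probe. The probes of Krtap1-1 and Krtap1-3 matched each other at 46 of 60 bases, the highest of the 36 pairs of member probes. In the other pairs the best ungapped match was at most 25 bases. How far a probe also binds the transcript of a related gene was not tested.

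Of the members, 6 lie in 1 stretch of chromosome 10, within the type I keratin and keratin-associated protein clusters, and in rn4 their probes start at 88514006 (Krtap3-1), 88538870 (Krtap1-1), 88545976 (Krtap1-3), 88974028 (Krt34), 88984951 (Krt31) and 89041741 (Krt36). Krt83 and Krt85 lie on chromosome 7, with probe starts at 140178928 and 140263682, within the type II keratin cluster. Krtap13-2 lies on chromosome 11, with its probe starting at 28613077. The probe that the array names Krt83 carries an accession that the current RefSeq annotation (GRCr8) names Krt87, and it is called Krt83 here as on the array.

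Because levels of the members moved together over the normal pieces, the 250 bases before the start of each gene were searched in the RefSeq sequences of GRCr8, on both strands, for TATAAA (the core promoter box), CTTTGAA (letters known to be bound by LEF1) and TTTATGG. The last was picked after these sequences had been read. Krt31, Krt34, Krt85 and Krtap3-1 are shown, as they hold most of the matches, with each match in capitals. They lie on the minus strand at chr10:85483301-85483550, chr10:85474502-85474751, chr7:134515787-134516036 and chr10:85024140-85024389.
Krt31: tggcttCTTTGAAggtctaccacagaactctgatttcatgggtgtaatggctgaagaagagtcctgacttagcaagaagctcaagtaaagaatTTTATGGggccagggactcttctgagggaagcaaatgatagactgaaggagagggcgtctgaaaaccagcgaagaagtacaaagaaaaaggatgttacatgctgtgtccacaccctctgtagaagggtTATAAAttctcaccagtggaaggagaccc
Krt34: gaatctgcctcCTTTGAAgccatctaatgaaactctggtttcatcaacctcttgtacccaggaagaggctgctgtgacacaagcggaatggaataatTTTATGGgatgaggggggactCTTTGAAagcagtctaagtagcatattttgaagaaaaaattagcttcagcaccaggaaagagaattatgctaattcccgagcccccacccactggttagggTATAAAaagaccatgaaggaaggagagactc
Krt85: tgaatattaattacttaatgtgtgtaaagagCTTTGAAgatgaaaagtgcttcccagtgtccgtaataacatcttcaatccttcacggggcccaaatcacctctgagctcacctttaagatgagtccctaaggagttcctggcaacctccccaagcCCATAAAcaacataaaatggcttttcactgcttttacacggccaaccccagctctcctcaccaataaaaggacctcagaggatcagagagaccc
Krtap3-1: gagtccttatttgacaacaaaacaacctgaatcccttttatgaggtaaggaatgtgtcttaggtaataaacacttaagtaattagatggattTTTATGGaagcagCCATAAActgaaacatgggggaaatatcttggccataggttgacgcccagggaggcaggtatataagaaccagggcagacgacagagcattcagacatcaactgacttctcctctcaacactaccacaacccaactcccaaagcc
TTTATGG was found in 6 of the 9 member sequences (Krt31, Krt34, Krt83, Krt85, Krtap3-1 and Krtap13-2) and in 2.7% of the 33469 sequences of the same length in the table. CTTTGAA was found in 4 of 9 (Krt31, Krt34, Krt36 and Krt85, with 2 matches in Krt34) and in 4.68% of all. TATAAA was found in 5 of 9 (Krt31, Krt34, Krtap1-1, Krtap1-3 and Krtap13-2) and in 12.9% of all. No matches overlapped each other. The sequence for Krt83 was that of Krt87. The matches are a description of these letters and were not related to binding.

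All 9 members were well above background on all 11 normal arrays, and their levels differed widely between rats. For Krt85, a type II keratin of the hair shaft cortex, the level in normal tissue was -2.74 at the lowest, 0.86 at the median and 4.63 at the highest, a 166.1-fold range. Its SD over the 11 normal arrays, 2.52, was the largest of the 14352 probes that were well above background on all of them. Krt83, another type II hair keratin, ran from -2.33 through a median of 0.87 to 4.24, a 94.8-fold range. The members with the narrowest spread were Krtap1-3, from -0.62 to 3.36 (15.9-fold), and Krt36, from 2.55 to 6.60 (16.6-fold). Among the probes detected on all normal arrays, 0.878% had an SD at or above that of Krtap1-3 (1.25), and the median SD was 0.24.

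The rats took nearly the same order for each gene. Animals 4, 9, 16 and 17 held the 4 highest levels of all 9 members in normal tissue, and animal 16 was first or second for each. Animal 22 was last or next to last for each of them. The normal pieces of animals 11, 13, 21 and 24 were also low, at rank 6 or below for every member, and those of animals 25 and 26 lay between. Animals 4 and 9 shared a slide with the low animals 11 and 13, and animals 16 and 17 with the low animals 21 and 22. The remaining slide held animals 25 and 26 with the low animal 24, and none of the 4 highest. In bulk tissue, fewer cells of a type and less RNA per cell cannot be told apart.

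Over the 11 normal arrays, the Pearson correlation of the 36 gene pairs was between 0.81 and 1.00, with a median of 0.96, and Spearman's rho was between 0.78 and 1.00, with a median of 0.94. All 36 pairs passed a two-sided permutation test of each coefficient with Benjamini-Hochberg adjustment over the pairs, with largest adjusted p of 0.0037 for Pearson and 0.0067 for Spearman. The closest pairs were the type II keratins Krt83 and Krt85 (r = 1.00), and Krt31 with Krt34 (r = 0.99), 2 neighbouring type I keratins. Krt36 with Krtap1-1 was the loosest (r = 0.81). When the 2 rats farthest from the median of the first gene were left out of each pair, r lay between 0.75 and 1.00, and within the 6 rats with the highest levels it lay between 0.67 and 1.00 (median 0.93). The widest gap between neighbouring rats was at most 33.5% of a gene's range in normal tissue.

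**Figure D1:**
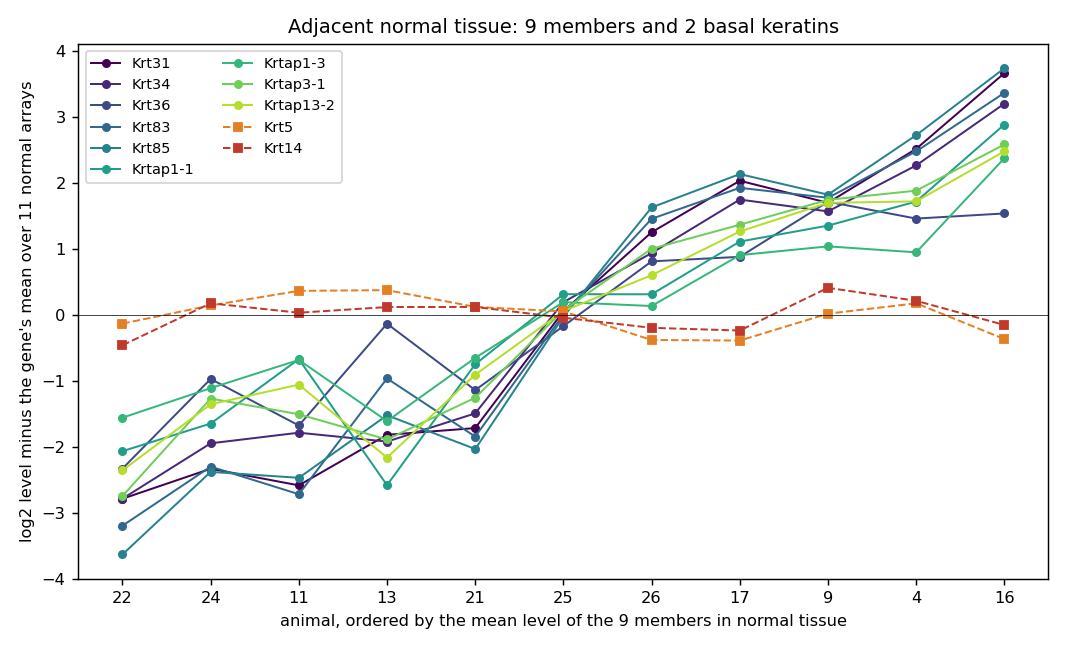
Level of each member in adjacent normal tissue, as log2 difference from the gene's own mean over the 11 normal arrays, for the 11 rats ordered by the mean of the members. The 9 members (circles) rise together from animal 22 to animal 16, while the basal keratins Krt5 and Krt14 (squares, dashed) stay close to their means.

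Most marker genes of other cell types had a smaller spread, Myh2, a myosin heavy chain with an SD of 2.58, being an exception. The basal keratin Krt5 had an SD of 0.28 over the normal arrays and Krt14 of 0.25, and the muscle creatine kinase Ckm had 0.36. With the mean of the members, each standardised over the normal arrays, the correlation was -0.55 for Krt5, 0.14 for Krt14 and 0.20 for Ckm. It was 0.86 for Krt13 and 0.81 for Krt4, keratins of the layers above the basal one, and -0.93 for Trp63, the transcription factor of basal epithelial cells, whose SD was 0.31. Among endothelial genes it was -0.90 for Pecam1 and 0.72 for Cdh5. These are descriptions over the same 11 arrays, and the part of tissue composition in the spread of the members was not tested.

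Of 11276 other annotated genes well above background on at least 6 normal arrays, those most like the members over the 11 normal arrays included Kb23 (r = 0.99 with the mean of the members), Krt33b (0.99), Krtap14l (0.99), Krt33a (0.99), Lrrc15 (0.99), Krt81 (0.98) and Krtap21-2 (0.98). The median r over these genes was -0.17. Of these, 6 are named as keratins or as keratin-associated or related proteins, whereas Lrrc15, a leucine-rich repeat membrane protein, is not. The probe of Kb23, a type II keratin, lists the accessions of 3 keratin transcripts, Krt81 among them. In normal tissue Lrrc15 ran from -1.49 to 2.71 and Krt33b from -1.82 to 4.11. In OSCC, the correlation with the mean of the members was 0.95 for Krt33b and 0.93 for Kb23 and 0.59 for Lrrc15.

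The question put by the paired pieces was how these genes differ between OSCC and the tissue beside it. All 9 means were lower in OSCC, with a median difference of -2.72 against -0.24 over all probes. Of the 99 differences, 9 genes in 11 rats, 84 were below 0, and in 8 rats all 9 members were lower in OSCC. By limma's adjusted p and the 2-fold limit, 8 of the 9 were called lower (6.97% of all probes were), Krt31 being the exception. That count follows from how the genes were chosen. Each member was lower in at least 8 of 11 pairs, as were 41.5% of all probes, and 4 of them in 10 of 11, where 11.9% of all probes reached at least 10.

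Krt34, a type I hair keratin, was near background in most OSCC pieces. Its level in normal tissue was -1.48 at the lowest, 1.498 at the median and 4.51 at the highest, and in OSCC -6.86, -5.73 and 1.98. The mean difference was -5.53 ± 3.90 (SD, n = 11), and -2.83 with normexp background correction, another way to remove background. The OSCC level was below every normal level in 9 rats, and only 5 of the 11 OSCC arrays had it well above background. It was lower in 10 of 11 pairs.

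Krt31, its neighbour on the chromosome, ran from -2.77 through 0.07 to 3.68 in normal tissue and from -5.46 through -1.47 to 1.04 in OSCC. The groups overlapped over most of their range. The mean difference was -1.99 ± 3.23 (SD, n = 11), or -1.15 with normexp, and it was lower in 8 of 11 pairs. Animals 11, 21 and 22 were the exceptions.

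Krt36, a type I hair keratin, remained well above background on all OSCC arrays. In normal tissue its level was 2.55, 4.75 and 6.60 at the lowest, median and highest, and in OSCC -3.11, 3.39 and 5.33. The mean difference was -2.30 ± 2.54 (SD, n = 11), lower in 9 of 11 pairs. OSCC of animals 13, 21 and 24 stood apart from the rest at 0.77, -0.24 and -3.11.

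The type II keratins Krt83 and Krt85 had similar values. In OSCC, Krt83 was at -5.84, -1.64 and 2.31 at the lowest, median and highest, with a mean difference of -2.51 ± 3.15 (SD, n = 11). Krt85 was at -6.01, -1.67 and 2.70, with a mean difference of -2.65 ± 3.50 (SD, n = 11). With normexp the differences were -1.66 for Krt83 and -1.76 for Krt85, and neither gene was called. Both were lower in 9 of 11 pairs and well above background on 9 of 11 OSCC arrays, and animals 21 and 24 were the lowest for both.

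Krtap1-1 and Krtap1-3, high-sulfur proteins of the filament matrix, were the members for which OSCC and normal tissue were most nearly separate. Krtap1-1 was at -2.36, 0.54 and 3.11 in normal tissue and at -5.65, -4.88 and 0.08 in OSCC, with a mean difference of -4.52 ± 2.76 (SD, n = 11) that was -2.06 with normexp. Krtap1-3 was at -0.62, 1.12 and 3.36 in normal tissue and at -2.26, -2.09 and 0.41 in OSCC, with a mean difference of -2.72 ± 1.69 (SD, n = 11). For both, the OSCC levels of 10 rats lay below all 11 normal levels, and the remaining one was that of animal 22. The 2 probes behaved differently at the low end. Krtap1-1 was well above background on 3 OSCC arrays, whereas Krtap1-3 was so on all 11 and, without animal 22, held a nearly constant level between -2.26 and -1.43 (SD 0.28).

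Krtap3-1, a high-sulfur protein of another family, was well above background on all 11 OSCC arrays. It was at 0.80, 3.62 and 6.13 in normal tissue and at -3.67, 1.51 and 4.43 in OSCC. The mean difference was -2.81 ± 2.79 (SD, n = 11), lower in 9 of 11 pairs. Krtap13-2 was at 1.25, 3.67 and 6.09 in normal tissue and at -6.73, -0.57 and 4.15 in OSCC, with a mean difference of -4.84 ± 3.83 (SD, n = 11). It was lower in 10 of 11 pairs, and 8 OSCC levels lay below all normal levels. Its second probe had a mean difference of -5.69 and a correlation of 1.00 with the first over the normal arrays.

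**Figure D2:**
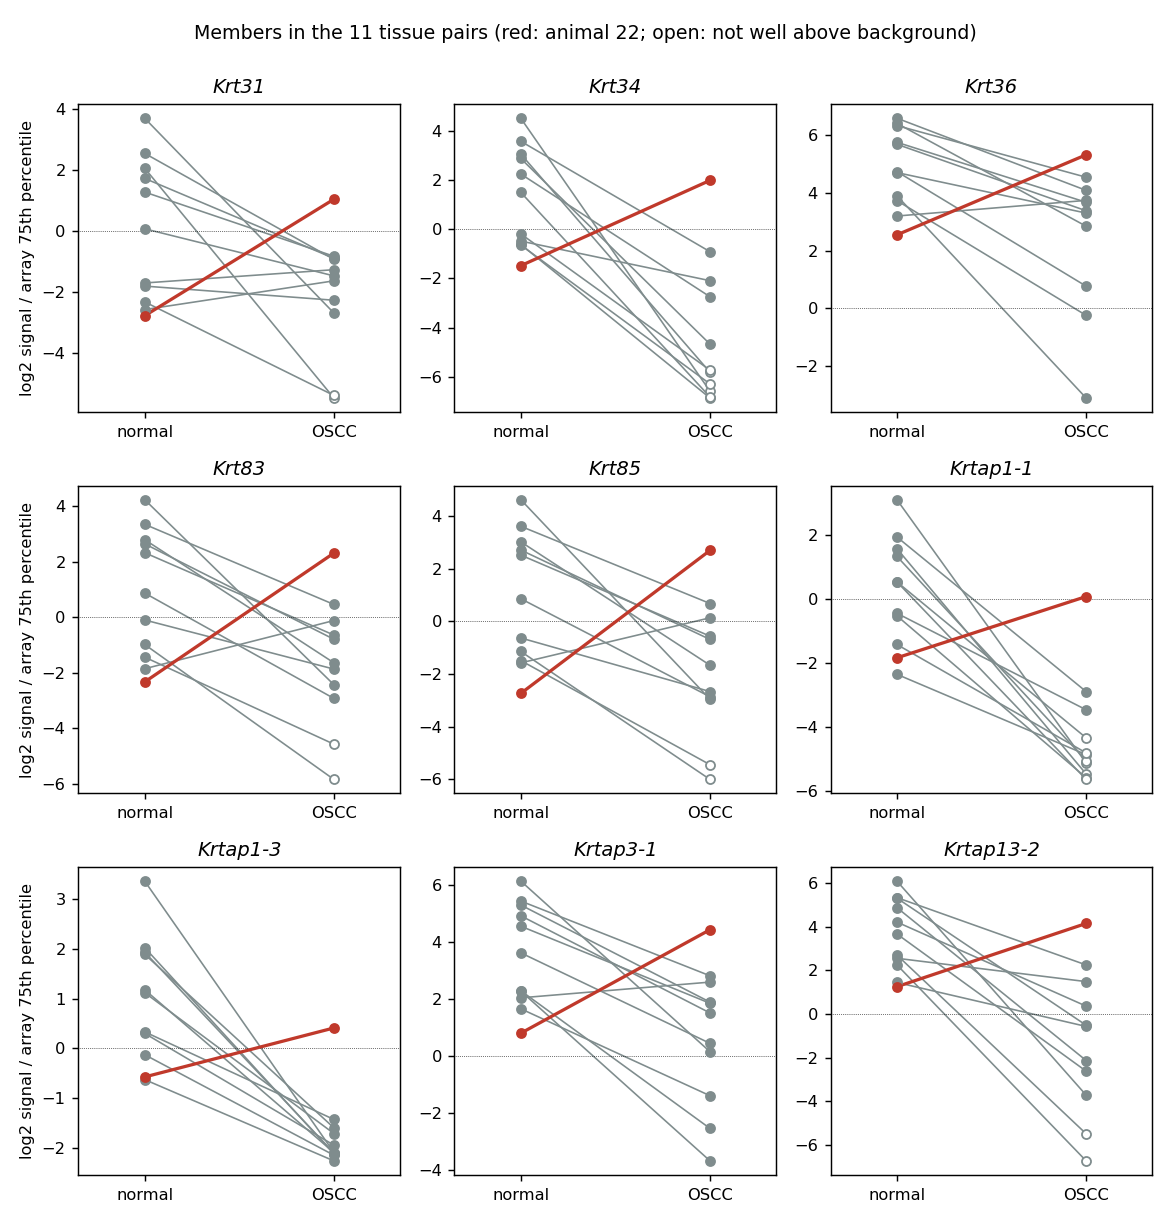
Level of each member in the 11 pairs, as log2 of the signal over the 75th percentile of the array, with a line joining the normal and OSCC piece of a rat and open circles for values not well above background. Lines fall in 8 to 10 of the 11 pairs, and the line of animal 22 (red) rises in all 9 panels.

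Animal 22 went the other way for every member. Its differences ran from 0.99 for Krtap1-3 to 5.44 for Krt85, its OSCC held the highest OSCC level of all 9 genes, and its normal piece was last or next to last of the normal levels. Without it, the mean differences ran from -2.57 (Krt31) to -6.43 (Krt34). In the same rat the regulators Lef1, Msx2 and Dlx3 were lower in OSCC than in normal tissue, as in the other 10. They are the regulators that were lower in 11 of 11 pairs. Of the others, Foxn1 was lower in 10 of 11 pairs and Hoxc13, well above background on no array, in 8. The values of Foxn1 and Hoxc13 in this rat are not given here. Why the pair of this animal differed was not tested.

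Animal 11 was split among the members. Its OSCC was higher than its normal piece for Krt31 (0.94), Krt36 (0.54), Krt83 (1.74), Krt85 (1.72) and Krtap3-1 (0.55). It was lower for Krt34 (-1.61), Krtap1-1 (-3.02), Krtap1-3 (-2.25) and Krtap13-2 (-1.07).

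The pairs of animals 4 and 9, each scanned within 1 day, had all 9 members lower in OSCC. In the mean of these 2 pairs all 9 were at least 2-fold lower, as were 33.6% of all probes. The median difference of all probes there was -0.39. The members had been chosen as lower in samples that include these pairs. For animal 4 the differences ran from -1.79 (Krt36) to -4.84 (Krtap1-1), and for animal 9 from -2.51 (Krt36) to -7.55 (Krt34). With scan day as a further term limma called 3 probes in all, none of them a member. Tissue and scan day differ together in the other 9 pairs.

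Marker genes of other cells also differed between the OSCC pieces. Animal 24 had the least of the basal keratins, with Krt5 at 2.34 and Krt14 at 2.94, against 4.78 to 6.87 and 6.31 to 8.57 in the other OSCC, and only 3 members were well above background there. In the OSCC of animals 21, 22 and 24, Ckm was between 9.05 and 9.28, within the span of the normal pieces (8.22 to 9.36), while in the other OSCC it was between 3.05 and 7.83. The mean over the 8 muscle markers in the OSCC of animals 21, 22 and 24 was 7.61, 6.95 and 7.52. That was above every normal piece (4.71 to 6.56), and the other OSCC lay between 1.77 and 5.73. Over the 6 squamous markers the mean level was 4.74 to 5.44 in normal tissue and 2.71 to 5.78 in OSCC, and all 6 were detected on all 22 arrays. Leaving out animals 21, 22 and 24, mean differences of the members ran from -2.14 (Krt36) to -6.65 (Krt34). The part of tissue makeup in these differences was not tested.

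In OSCC the relations among members were uneven. The correlation over the 11 OSCC arrays was between 0.35 and 0.99, with a median of 0.76, and 20 of 36 gene pairs passed the permutation test for Pearson's r and 19 for Spearman's rho (rho between 0.14 and 0.99). When the 2 rats farthest from the median of the first gene were left out, r lay between -0.04 and 0.99. Animal 22 stood apart, with a gap of 68.8% of the range for Krtap1-3 and 52.0% for Krtap1-1. Without it 13 pairs passed and the median r was 0.60. Whether the correlations differ between OSCC and normal tissue was not tested.

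Krt36, Krt83, Krt85, Krtap3-1 and Krtap13-2 were grouped after their values were seen. Their r was 0.82 to 0.99 over the 11 OSCC arrays and 0.79 to 0.99 without animal 22. With the 2 rats farthest from the median of the first gene left out, r in this group was 0.56 to 0.99. The lowest was Krt36 with Krtap13-2. For Krtap1-3 without animal 22, r with the other members was between -0.30 and 0.10. Krt31 was also apart without animal 22, with r between -0.03 and 0.54. With the 2 rats farthest from the Krt31 median left out instead, r with the other members was 0.57 to 0.83. The OSCC level of Krt31 was -5.46 in animal 17, where Krt83 was at its median of -1.64. It was -1.27 in animal 21, where Krt83 was at its lowest. Krt31 in animal 17 and Krt83 in animal 21 were not well above background. Krt34 and Krtap1-1 were close to each other (r = 0.92, and 0.86 without animal 22), with most of their OSCC arrays not well above background.

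**Figure D3:**
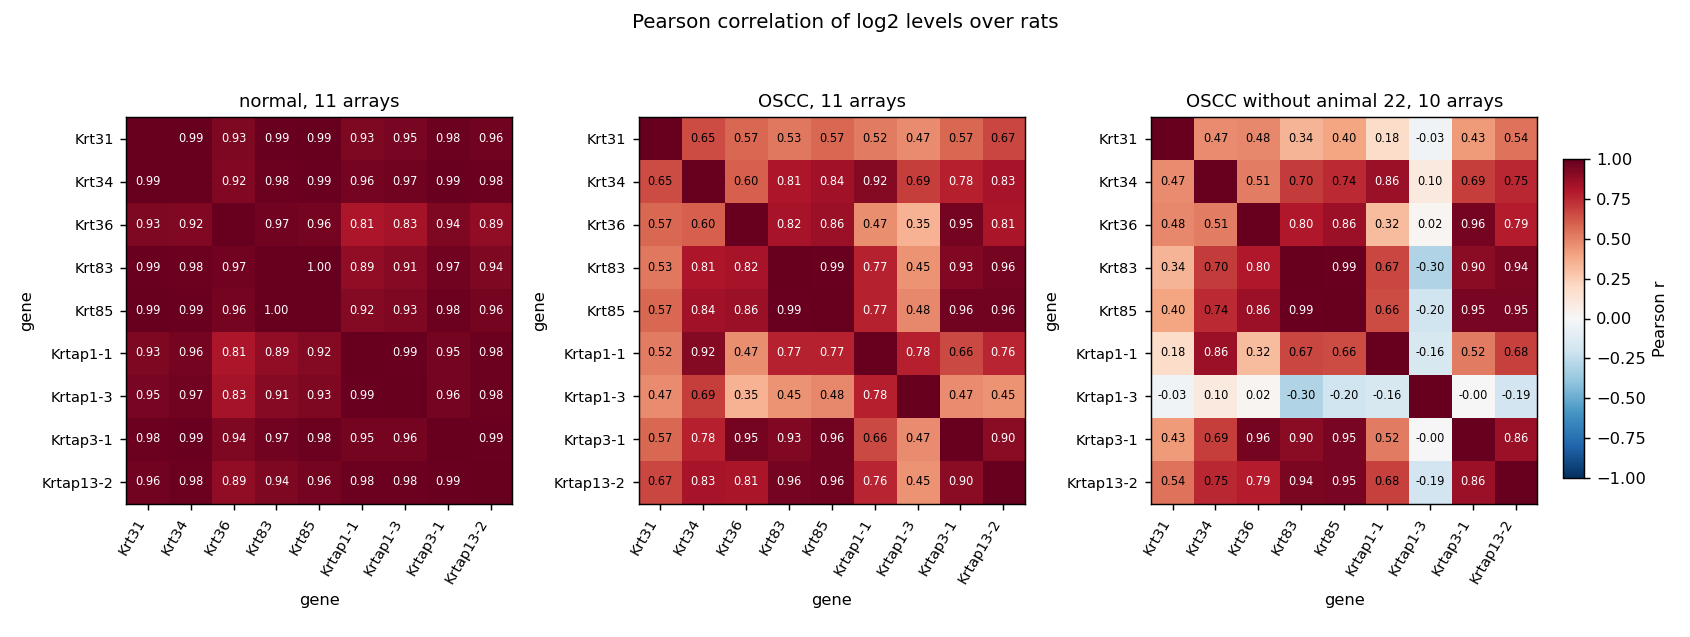
Pearson r of the log2 levels of each pair of members over the 11 normal arrays (left), the 11 OSCC arrays (middle) and the 10 OSCC arrays without animal 22 (right). The left panel holds values from 0.81 to 1.00, and the right panel runs from -0.30 to 0.99, with the row of Krtap1-3 near 0.

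The other genes of the hair program were taken from 5 lists of 45 genes on the array, of which 20 were called lower, none higher, and 25 not called. Their median difference was -0.90, and 13 were well above background on no array. Of the 45, 6 were found by name in published lists drawn from these same samples. Genes that those lists give under another name were not looked for, so the other genes may include some of them. Of the other 39, 14 were called lower, among them Hoxc13, which was well above background on no array. All come from the same arrays, and the lists were chosen with earlier results known, so neither set is independent evidence. Over all probes 6.97% were called lower and 6.86% higher. With scan day as a further term limma called none of the 45, and 28 were lower at an unadjusted p below 0.05 with a 2-fold change, as were 25.2% of all probes. In the mean of the pairs of animals 4 and 9, scanned within 1 day, 35 were at least 2-fold lower and 3 at least 2-fold higher, where 33.6% of all probes were at least 2-fold lower. With dim probes removed 18 were called lower, and with normexp 14.

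Among 9 other hair keratins, 6 were called lower. The type I keratin Krt33b was at -1.82 to 4.11 in normal tissue and -6.47 to 1.76 in OSCC (difference -5.04, SE 0.95, limma adjusted p = 0.0019), with 5 OSCC arrays well above background. Krt35, a type I keratin of the early cortex, fell by 4.72 (SE 0.70, limma adjusted p = 0.00056) and Krt33a fell by 4.16 (SE 0.93, limma adjusted p = 0.0047). The type II keratin Krt81 fell by 3.39 (SE 0.78, limma adjusted p = 0.0056). Krt35 was well above background on 2 OSCC arrays and Krt33a on 3, so that these sizes rest on signals near background, and with normexp they were -1.78 and -2.08. Krt39 and Krt40 were the other calls, Krt39 with 1 OSCC array well above background, Krt40 well above background on 2 normal arrays and no OSCC array, so that its size is not given. Krt32, Krt82 and Krt84 were well above background on no array. Krt33a, Krt33b and Krt35 are in the published lists.

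None of 7 inner root sheath and companion layer keratins was called. Of these, Krt26, Krt27, Krt72 and Krt73 were well above background on no array, Krt25 and Krt28 on no normal array. Krt75, a companion layer keratin, was detected on 9 normal and 7 OSCC arrays, and its difference was -0.90 (limma adjusted p = 0.18).

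Among 19 other keratin-associated proteins, 8 were called lower. Their differences ran from -3.11 (Krtap19-3) to -5.35 for Krtap9-5, which only 1 OSCC array had well above background and which was at -2.09 with normexp. Krtap4-13, a member of a cysteine-rich family, was at 1.20 to 5.53 in normal tissue and -3.06 to 2.26 in OSCC (difference -5.00, SE 0.60, limma adjusted p = 0.00022). Krtap21-2 fell by 4.95 (SE 0.87, limma adjusted p = 0.0013). Each of the 8 was lower in 10 of 11 pairs, where 11.9% of all probes were lower in at least 10. None of the 6 genes named Krtap10 was called. Among them Krtap10l2 was higher in 11 of 11 pairs by 0.96 (limma adjusted p = 0.00067), just under the 2-fold limit, and Krtap10-9 by 0.30 (limma adjusted p = 0.059).

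Of the 5 regulators, the 4 that were detected were called lower. Lef1, which acts in Wnt signalling, was at -1.99 to -0.77 in normal tissue and -4.25 to -3.02 in OSCC, with no overlap (difference -2.12, SE 0.17, limma adjusted p = 4.6e-05). Msx2 fell by 2.83 (SE 0.34, limma adjusted p = 0.00022), also with no overlap, and Dlx3 fell by 1.52 (SE 0.24, limma adjusted p = 0.00079). These 3 were lower in 11 of 11 pairs, where 11.9% of all probes were lower in at least 10. The share of all probes with no overlap was not counted. Foxn1 fell by 1.11 (SE 0.26, limma adjusted p = 0.0065). With normexp Lef1 was at -0.91 (limma adjusted p = 0.062) and Foxn1 at -0.28 (limma adjusted p = 0.83), so that both calls were lost. Hoxc13 also passed the limits but was well above background on no array, so its call is not used and no size is given. In normal tissue the regulators varied less than the members, with SDs of 0.39 for Lef1, 0.45 for Msx2, 0.49 for Dlx3 and 0.61 for Foxn1. Their correlation with the mean of the members was -0.09, 0.46, 0.20 and 0.62. For Hoxc13, well above background on no array, the SD was 0.88 and r was 0.60.

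Of 5 partner genes of the hair shaft, Dsg4, a desmosomal cadherin of the shaft, was called lower in OSCC (limma adjusted p = 0.00053). In the main processing it was at least 3.41-fold lower, a bound because no OSCC array had it well above background. It was well above background on 8 normal arrays. With normexp its difference was -1.03, a smaller change than that bound, and it was not called (limma adjusted p = 0.071). It is in the published lists. The trichohyalin gene Tchh had a difference of -1.59 (limma adjusted p = 0.08), with levels from 2.08 to 4.41 in normal tissue and from -4.95 to 3.95 in OSCC. The crosslinking enzyme Tgm3 had 0.23 (limma adjusted p = 0.59), S100a3 -0.66 (limma adjusted p = 0.11) and Padi3, which deiminates S100a3 and trichohyalin, 0.65 (limma adjusted p = 0.32). In normal tissue Tchh followed the members (r = 0.95), Tgm3 with r = 0.88.

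**Figure D4:**
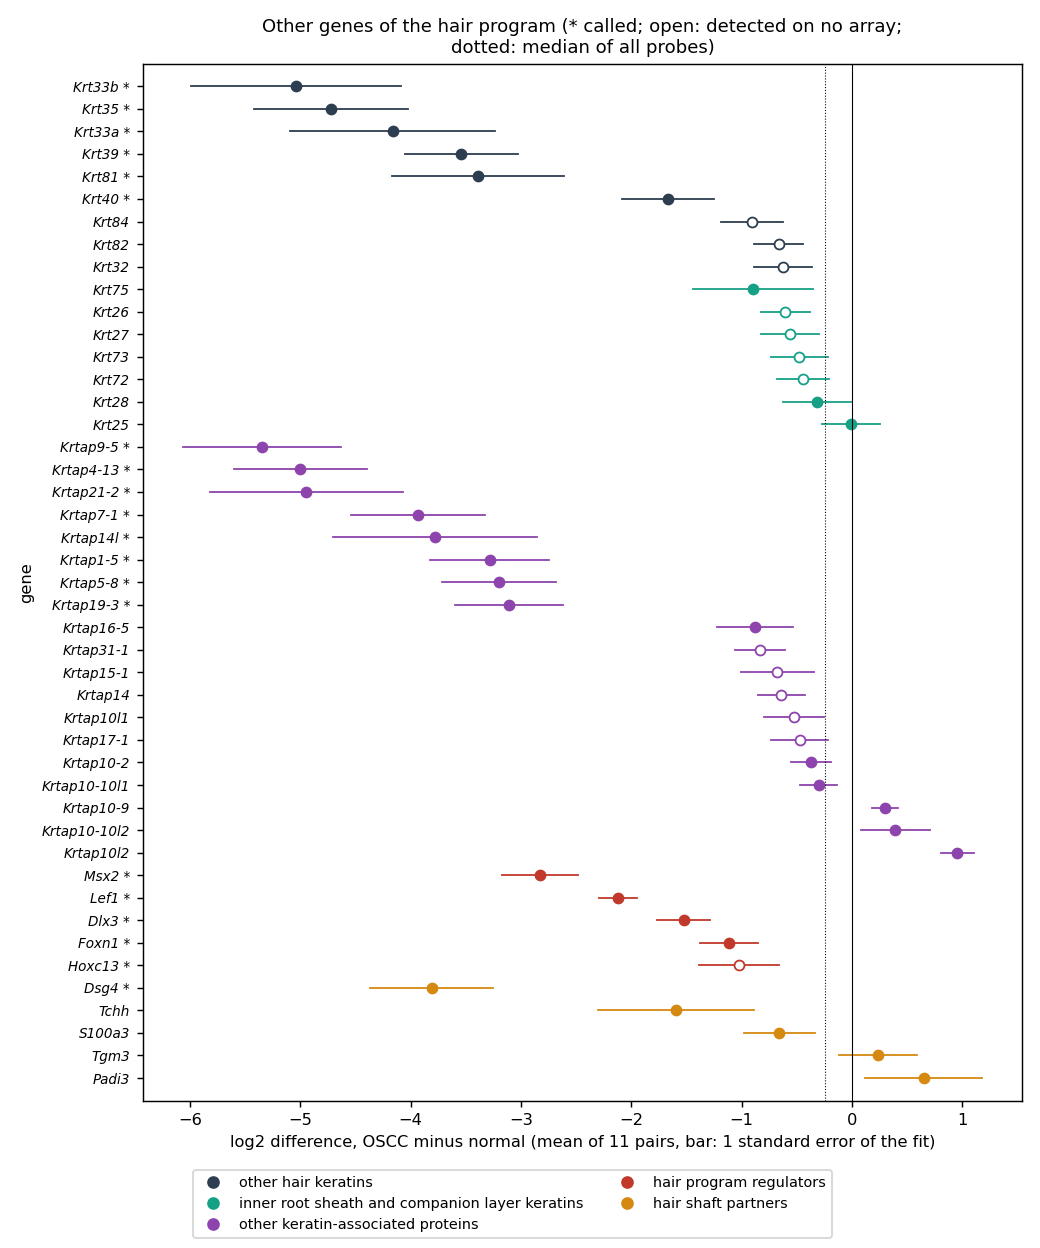
Mean log2 difference, OSCC minus normal, of the 45 other genes of the hair program by list, with bars of 1 standard error of the limma fit, open circles for genes well above background on no array and an asterisk for genes called. The 8 called keratin-associated proteins and the called shaft keratins other than Krt40 (-1.67) lie between -5.35 and -3.11, and the Krtap10 genes lie between -0.53 and 0.96.

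Basal epithelial genes were not called. Krt5 had a difference of -0.08 (limma adjusted p = 0.87), Krt14 of 0.29 (limma adjusted p = 0.6) and Trp63 of -0.33 (limma adjusted p = 0.35). Of the 6 squamous markers none was called lower and Dsg3 was called higher, by 1.07. Among 8 skeletal muscle genes 5 were called lower and Myh2 higher. Of 6 leukocyte genes all were called higher, of 6 fibroblast genes 5 and of 5 gland genes 4, while none of 5 endothelial genes was called. Over all probes 6.86% were called higher and 6.97% lower. Among the genes called higher here, Cd79b, Aqp5, Bhlha15 and Krt18 were well above background on no normal array. With normexp Cd3e, Cd79b, Col1a1, Col1a2, Col3a1, Bhlha15 and Myh2 were not called, and Aqp5 was at the limit (limma adjusted p = 0.05).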

How the data were processed

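Total RNA from OSCC and adjacent normal tongue of 11 rats was measured on 22 Agilent Rat GE 4x44K v3 arrays. The intensity values deposited by the authors came from Agilent Feature Extraction 9.5.3.1 (protocol GE1-v5_95_Feb07, per the file headers), which subtracts local background and removes spatial trends. The authors also deposited each signal as a ratio to a percentile of its array, which served as an alternative. Control spots and 9196 outlier spots were left out, the log2 signals of a probe's spots were averaged and the 75th percentile of the array was subtracted, with no filter on dim probes. The paired comparison used limma 3.58.1 (R 4.3.3) with terms for rat and tissue and Benjamini-Hochberg adjustment over 30367 probes. Calls needed an adjusted p under 0.05 and a 2-fold difference. The fit was tested on simulated data. The pairing comes from both pieces being of 1 animal; the deviations of the 2 pieces from their group means correlated between -0.21 and 0.24. Correlations over rats were tested with 100000 permutations, whose smallest p is 1e-05 (numpy 2.4.6, two-sided). Fold bounds for genes undetected on every array of a tissue used, per array, the higher of the lowest signal well above background and the probe's own.

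Of all probes, 17328 had a current symbol in RefSeq GRCr8, and promoter letters are RefSeq's. The members and lists were chosen with earlier results of these data known. The genes named were the members, the 8 most like them in normal tissue, of which 1 is not reported here, and genes of the lists. Krt37, Krt38, Krt86, Krt71, Krt74 and Muc5b were not found on the array by symbol. Alternatives were other scalings (quantile, array median, 75th percentile of probes detected on all arrays), normexp background correction with an offset of 50, the authors' ratios, a filter on dim probes (6 arrays), slide as a random block, scan day, no replicate block, the methods' t-test, the mean of all probes of a gene, and leaving out rats. The number of arrays limits the precision.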

Additional observations from a re-analysis of the deposited data

How the results depend on the processing

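All 225 values of the members' mean differences under the alternatives, 9 members in 25 settings, were below 0, but the settings are not separate checks. The filter on dim probes, no replicate block and the methods' t-test leave the mean differences unchanged. Scan day as a term gives the same differences as the pairs of animals 4 and 9. The members were also chosen as lower in OSCC. The median difference of all probes was -0.24, -0.03 after quantile normalization and -0.44 with arrays scaled to their median, and the sign of the small difference of Krt5 changed with the scaling. The median difference of the members was between -3.46 and -2.44 when 1 rat was left out, and the count of members called lower between 6 and 9. With normexp 6 members were called, all but Krt31, Krt83 and Krt85. The median difference of the 9 members was then -2.08, and the smallest was -1.15 (Krt31). The count of probes called was 4201, between 3649 and 4799 without 1 rat, 1701 with normexp background correction, 6924 without animals 21, 22 and 24, 13265 within the pairs of animals 4 and 9, and 3 with scan day as a term (9578 at an unadjusted p below 0.05 and 2-fold). With scan day as a term limma called 0 members and 0 of the 45 other hair program genes (3 and 28 at an unadjusted p). With slide as a random block 5 members were called, in a fit with no term for rat, which also ignores the pairing. Other hair program genes called lower were 20, between 19 and 22 without 1 rat, and 35 within 1 scan day. In that fit of 2 pairs limma gave 30351 probes the same standard error, so that its calls amount to the 2-fold limit (13267 probes) and are no test. The correlations of all 36 pairs in normal tissue passed in each alternative run for them, which were the other scalings, normexp, the authors' ratios, the mean of all probes, each rat left out and deviations from the slide mean. In OSCC 20 passed, 13 without animal 22, 13 without animals 21, 22 and 24, and between 13 and 25 without 1 rat. With no replicate block, which ignores the pairing, 4227 probes, 8 members and 20 other hair program genes were called. Scan day and tissue differ together in 9 pairs. Signal over background limits Krt34, Krtap1-1, Krt33a, Krt33b, Krt35, Krt39 and Krtap9-5 in OSCC, which were well above background on 5, 3, 3, 5, 2, 1 and 1 arrays, so that their differences rest on signals near background.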
